A study of Rattus norvegicus with 7 samples.

Results

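The genes described here are 8 genes of cholesterol synthesis and its feedback control: Hmgcs1, Idi1, Fdft1, Sqle, Lss, Cyp51 and Dhcr7, which encode enzymes, and Insig1, which encodes a sterol-sensing regulator. They were found as every probe set of the array that its annotation assigns to 1 of them alone. That gave 11 probe sets for 7 genes, of 31042 probe sets and 14217 named genes on the array, and 0 probe sets were shared with another gene. Hmgcs1 has no such probe set in the annotation used here and its level was not analysed. The 8 genes include no receptor for cholesterol uptake; uptake genes are described only as other genes of the pathway.

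Cells make cholesterol from acetyl-CoA by way of mevalonate, the isoprenoids and squalene, and the ring-closed sterols are then trimmed to cholesterol. When sterols in the endoplasmic reticulum are scarce, the escort protein SCAP carries the SREBP transcription factors to the Golgi for cleavage, and they switch on the enzymes of the pathway; when sterols are plentiful, INSIG proteins hold the SCAP and SREBP complex back. In testis, Leydig cells use cholesterol to make androgens, and germ cells accumulate meiosis-activating sterols, which arise from the CYP51 step onward.

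Gene expression had been measured on Rat230_2 arrays in testes of adult rats of the outbred Sprague-Dawley stock. The groups were untreated rats, which stand for 0 h (n = 3), and rats killed 8 h (n = 2) or 20 h (n = 2) after 1 intraperitoneal dose of 3 mg/kg cadmium chloride; the labels and design text name no vehicle injection for the untreated rats. Each array is called a biological replicate in the labels, and whether that means 1 animal is not stated, so the spread is that between these samples. Whole testis mixes cell types, so fewer cells of a type and less RNA per cell cannot be told apart.

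Values are the deposited signal of a probe set, scaled to a trimmed mean of 250.1 on every array, with median signals from 52.9 to 72.0. Hybridization took 3 days. Day 1 held 20 h replicate 1 with untreated replicate 1, day 2 held untreated replicate 2 with no cadmium array, and day 3 held the 2 arrays of 8 h and 20 h replicate 2 with untreated replicate 3. The log2 ratio of the 3′ to the 5′ actin probe sets, a sign of RNA quality, ran from 1.191 to 1.422 on day 3 and from 0.733 to 0.985 on days 1 and 2. Both 8 h arrays, at 1.422 and 1.390, and 20 h replicate 2, at 1.363, were above all 3 untreated arrays. The control of their day, untreated replicate 3, had 1.191, so comparing within day 3 does not remove this difference. The part of the actin ratio in the results below was not tested. The instrument recorded station 1 for untreated replicate 3 and 8 h replicate 1, and station 2 for the other arrays. Within day 3, 8 h replicate 2 and 20 h replicate 2 thus differ from their control in station too. The part of the station was not tested. Untreated replicate 2 was stained at 25 °C under an older protocol, and the other 6 arrays at 35 °C; the instrument's file for it gives mouse as the sample type, against rat for the others. Member results are therefore given also as a same-day difference, taken in log2(signal + 15) between a cadmium array and the untreated array hybridized with it, cadmium minus untreated. Of the 4 differences, 3 share untreated replicate 3. It lay above both other untreated arrays in 6 of 11 member probe sets and 30.8% of all, and below both in 2 of 11 and 48.4% of all. Germ cell markers were bright on every array, with a summed signal of 101587 to 154073 over 9 spermatid genes, and no marker gene of any cell type was at 0 throughout. Leydig cell markers (7 genes) summed to 6117 to 8289 in untreated testis, 11126 and 7243 at 8 h, and 2567 and 7419 at 20 h. Endothelial markers (6 genes) summed to 558.2 to 595.0 in untreated testis, 242.9 and 474.1 at 8 h, and 151.7 and 542.3 at 20 h. All 4 cadmium sums were below all 3 untreated ones, but not every gene was lower. Against the same-day control 1 and 2 of 6 genes were higher at 8 h, and 0 and 4 of 6 at 20 h. Kdr, Emcn and Tie1 were dim, above their array's median on 0 of 7 arrays. The lowest sum of both lists was on 20 h replicate 1.

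The promoters of 4 members are shown because Idi1 and Insig1 were higher and Dhcr7 lower in the same-day differences, and Cyp51 has probe sets that differ. Each runs 5′ to 3′ from 250 bases before to 50 bases after the annotated start (RefSeq, GRCr8). Capitals mark matches, on either strand, to CCAAT (the NF-Y box), GGGCGG (the Sp1 box) and TGACG (the core letters of the cAMP response element). Idi1 lies at chr17:66547475-66547774, minus strand, Insig1 at chr4:8057720-8058019, minus strand, Dhcr7 at chr1:208444184-208444483, plus strand, and Cyp51 at chr4:30991443-30991742, plus strand.
Idi1: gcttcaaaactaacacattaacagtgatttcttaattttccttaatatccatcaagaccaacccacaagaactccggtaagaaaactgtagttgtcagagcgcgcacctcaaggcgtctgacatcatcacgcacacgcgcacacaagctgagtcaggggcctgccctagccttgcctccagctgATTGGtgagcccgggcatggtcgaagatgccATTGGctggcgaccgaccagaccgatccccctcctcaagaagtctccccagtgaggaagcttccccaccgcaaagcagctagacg
Insig1: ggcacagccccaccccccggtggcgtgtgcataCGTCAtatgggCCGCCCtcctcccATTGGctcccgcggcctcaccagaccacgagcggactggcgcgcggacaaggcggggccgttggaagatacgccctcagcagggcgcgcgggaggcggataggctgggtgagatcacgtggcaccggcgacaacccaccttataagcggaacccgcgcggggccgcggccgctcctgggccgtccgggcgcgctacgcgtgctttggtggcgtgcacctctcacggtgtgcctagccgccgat
Dhcr7: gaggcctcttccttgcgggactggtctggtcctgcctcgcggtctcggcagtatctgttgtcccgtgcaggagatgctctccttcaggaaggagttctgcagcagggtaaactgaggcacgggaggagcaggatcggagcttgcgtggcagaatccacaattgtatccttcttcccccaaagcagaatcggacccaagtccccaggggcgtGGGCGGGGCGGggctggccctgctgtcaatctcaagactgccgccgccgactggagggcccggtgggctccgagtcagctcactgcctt
Cyp51: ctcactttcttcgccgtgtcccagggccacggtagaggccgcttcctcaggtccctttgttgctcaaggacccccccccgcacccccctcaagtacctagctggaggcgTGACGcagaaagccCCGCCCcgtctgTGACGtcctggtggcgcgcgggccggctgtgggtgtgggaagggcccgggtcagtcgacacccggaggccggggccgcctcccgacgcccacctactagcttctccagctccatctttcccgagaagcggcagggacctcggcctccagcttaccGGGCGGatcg

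Promoters of 6 members, Hmgcs1 included, were in the RefSeq table. CCAAT matched in 4 of the 6 (Hmgcs1, Idi1, Lss and Insig1), against 37.5% of 33469 promoters of the same length. GGGCGG matched in 5 of the 6, all but Idi1, against 33.1%. The GC content of those 5 was 63.0% to 71.3%, and that of Idi1 was 53.7%. The shares over all promoters are not matched for GC content. TGACG matched in 2, Cyp51 and Insig1, against 21.2%, and the Cyp51 promoter held it at 141 and 115 bases before the start. The 2 GGGCGG matches of Dhcr7 overlap; no other matches in these promoters do. TCACNCCAC, a form of the sterol regulatory element bound by SREBP, matched in 0 of the 6 and in 1.12% of all promoters, which says only that these letters are not in these windows.

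No member passed the test over all probe sets at either time. The brighter of 2 probe sets of Idi1, early in the pathway, had all 4 cadmium arrays above the untreated ones; the other Idi1 probe set overlapped. Within hybridization days Idi1 and the regulator Insig1 were higher and Dhcr7, late in the pathway, was lower on all 4 cadmium arrays, while Fdft1 and Sqle differed little. Untreated replicate 3, the control in 3 of the 4 differences, was itself at an extreme of the 7 arrays. It was the lowest for Insig1 (448.3) and for Idi1 1388872_at (123.1), and the highest for Dhcr7 (293.8). The sum of spermatocyte markers (5 genes) was higher within days as well. It was 24816 and 25465 at 8 h and 26069 at 20 h, against 21768 in the day 3 control, and 21285 at 20 h, against 20964 in the day 1 control. Ldhc alone gave 15733.1 of the 24816 on 8 h replicate 1. The median same-day differences of these markers were 0.43 and 0.74 at 8 h and 0.03 and 0.80 at 20 h. On 20 h replicate 1, 3 of the 5 genes were above the control. Above on all 4 arrays were 3 of the 5, against 1524 of 11552 genes. The part of these markers in the members' values was not tested. The members follow in the order of the pathway, with Insig1 last.

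The first enzyme with a measured level was Idi1, the isomerase that interconverts the isoprenoid building blocks. Its brighter probe set, 1368878_at, gave 889.2, 859.3 and 907.9 in untreated testis, 1185.7 and 1091.0 at 8 h, and 1133.0 and 1194.5 at 20 h. All 4 cadmium arrays were above all 3 untreated arrays. Of all 20857 probe sets tested, 1.82% had all 4 cadmium arrays above all 3 untreated ones, and of the 11 member probe sets this 1 did. At 8 h alone 7.59% lay wholly above the untreated arrays (2 of 11 members) and 15.4% below (0 of 11), and at 20 h alone 4.65% above (1 of 11) and 10.7% below (1 of 11). Between 20 h and 8 h 15.2% lay wholly above (1 of 11) and 13.2% below (1 of 11). The mean was 1138 ± 67.0 at 8 h (SD, n = 2) and 885.5 ± 24.5 in untreated testis (SD, n = 3), a log2 fold change of 0.36 ± 0.13 (SE). At 20 h the mean was 1164 ± 43.5 (SD, n = 2), a log2 fold change of 0.39 ± 0.13 (SE) over the same untreated arrays. Neither passed over all probe sets in limma (adjusted p = 0.836 at 8 h and 0.999 at 20 h; unadjusted 0.022 and 0.014). The difference of 20 h from 8 h was 0.03, with a 95% interval from -0.29 to 0.35.

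The other Idi1 probe set, 1388872_at, gave 267.6, 265.3 and 123.1 in untreated testis, 133.4 and 148.2 at 8 h, and 303.7 and 158.0 at 20 h. These values followed the hybridization day: the 3 arrays of days 1 and 2 lay at 265.3 or above and the 4 of day 3 at 158.0 or below, whatever the treatment, which is also how the actin ratio split. Across groups its log2 fold change was -0.51 ± 0.35 (SE) at 8 h and 0.08 ± 0.35 (SE) at 20 h, opposite in sign at 8 h to that of the brighter probe set. Within days both probe sets went one way. The same-day differences were 0.38 and 0.26 at 8 h and 0.34 and 0.39 at 20 h for the brighter one, and 0.10 and 0.24 at 8 h and 0.17 and 0.33 at 20 h for the other. Blocking on day, the brighter probe set had 0.31 ± 0.13 (SE) at 8 h and 0.37 ± 0.11 (SE) at 20 h, and the other 0.13 ± 0.20 and 0.25 ± 0.18 (SE).

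**Figure D1:**
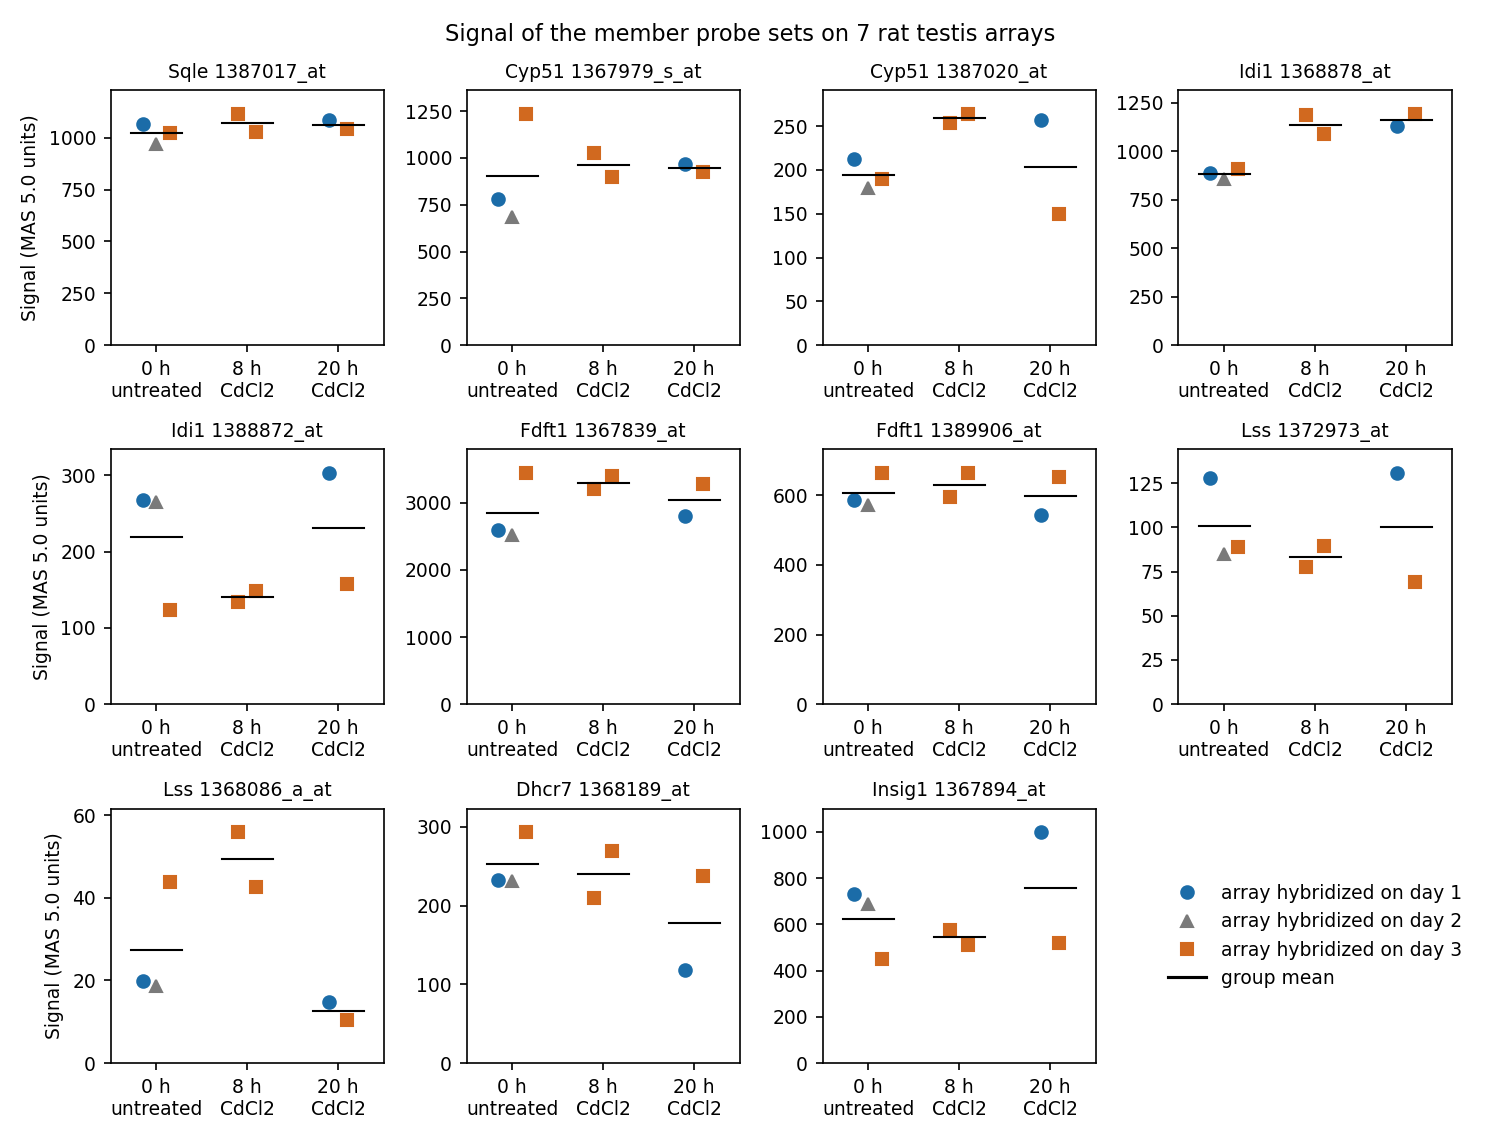
Signal (MAS 5.0 units, linear axis from 0) of the 11 member probe sets at 0 h (untreated, 3 arrays), 8 h and 20 h after cadmium chloride (2 arrays each); the marker gives the hybridization day and the bar the group mean. Idi1 1368878_at has its 4 cadmium arrays (1091.0 to 1194.5) above its 3 untreated arrays (859.3 to 907.9), while Idi1 1388872_at and Insig1 separate day 3 from the other days.

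Fdft1 encodes squalene synthase, which commits the pathway to sterols. Probe set 1367839_at gave 2586.3, 2521.5 and 3447.6 in untreated testis, 3200.8 and 3392.7 at 8 h, and 2800.4 and 3274.8 at 20 h. The 4 arrays of day 3 were the 4 highest. Its log2 fold change of 0.22 ± 0.16 (SE) at 8 h became -0.02 ± 0.10 (SE) once day was a block, and its same-day differences lay between -0.11 and 0.11. The second probe set, 1389906_at, ran from 542.1 to 664.7 over all arrays, with log2 fold changes of 0.05 ± 0.16 at 8 h and -0.03 ± 0.16 at 20 h (SE).

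Sqle, squalene epoxidase, which adds oxygen to squalene, varied least. It gave 1067.5, 968.2 and 1023.3 in untreated testis, 1115.5 and 1028.5 at 8 h, and 1084.4 and 1040.5 at 20 h. The groups overlapped, and the whole range over 7 arrays was 0.20 on the log2 scale, the smallest among the member probe sets. Its log2 fold change was 0.07 at 8 h, with a 95% interval from -0.22 to 0.37, and 0.06 at 20 h, with an interval from -0.24 to 0.35. 

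Lss, lanosterol synthase, closes the sterol rings, and its probe sets differed. Probe set 1372973_at gave 128.2, 84.8 and 89.0 in untreated testis, 77.4 and 89.3 at 8 h, and 131.0 and 69.4 at 20 h. The groups overlapped; the 2 arrays of day 1 were the highest, and the log2 fold changes were -0.22 ± 0.29 at 8 h and -0.04 ± 0.29 at 20 h (SE). Its same-day differences were -0.17 and 0.00 at 8 h and 0.03 and -0.30 at 20 h. Probe set 1368086_a_at was dim, above its array's median on 1 of 7 arrays, with 19.8, 18.6 and 43.9 in untreated testis, 56.0 and 42.6 at 8 h, and 14.9 and 10.5 at 20 h. Both 20 h arrays were below both 8 h arrays and below all 3 untreated arrays. The 20 h signals lay below the 15 added before log2, and the probe set was kept through the 8 h arrays and untreated replicate 3. The size of its difference between 20 h and 8 h therefore depended on the number added: the log2 value was -1.21 with 15, -1.88 with 1 and -0.66 with 50, and its limma adjusted p was 1.00 in each.

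Cyp51 encodes lanosterol demethylase, the step that leads to the meiosis-activating sterols. Probe set 1367979_s_at gave 781.7, 686.0 and 1236.6 in untreated testis, 1026.0 and 900.8 at 8 h, and 965.2 and 924.1 at 20 h. The untreated arrays held both the lowest and the highest value, and their SD of 294.0 exceeded that of 88.5 at 8 h and 29.1 at 20 h. The suffix of this probe set marks probes that can match more than 1 transcript. Probe set 1387020_at gave 212.3, 178.9 and 189.5 in untreated testis, 253.7 and 264.1 at 8 h, and 256.3 and 149.6 at 20 h. Both 8 h arrays were above all untreated arrays, which 7.59% of all probe sets were, and the 20 h arrays lay on either side. Its log2 fold change at 8 h was 0.40 ± 0.23 (SE; limma adjusted p = 0.836), and 0.56 ± 0.22 (SE) in the fit blocked on day (limma adjusted p = 0.805, unadjusted 0.027). The probe sets had same-day differences of opposite sign on both 8 h arrays: -0.27 and -0.45 for 1367979_s_at, and 0.39 and 0.45 for 1387020_at. On the 20 h arrays they had the same sign, 0.30 and -0.41 for 1367979_s_at, and 0.26 and -0.31 for 1387020_at.

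Dhcr7 encodes 7-dehydrocholesterol reductase, a last step to cholesterol. It gave 232.0, 230.9 and 293.8 in untreated testis, 209.8 and 269.1 at 8 h, and 117.6 and 237.5 at 20 h. The groups overlapped, and 20 h replicate 1 alone lay far below the rest. The mean was 177.6 ± 84.8 at 20 h (SD, n = 2) and 252.2 ± 36.0 in untreated testis (SD, n = 3), a log2 fold change of -0.54 ± 0.27 (SE; limma adjusted p = 0.999, unadjusted 0.080). Each cadmium array was below its same-day control, by differences of -0.46 and -0.12 at 8 h and -0.90 and -0.29 at 20 h. The day 3 control, untreated replicate 3, had the highest value of all arrays, 293.8. At 269.1 and 237.5, 8 h replicate 2 and 20 h replicate 2 were above untreated replicates 1 and 2, at 232.0 and 230.9. Blocking on day gave a log2 fold change of -0.44 ± 0.23 (SE; limma adjusted p = 0.824) at 8 h and -0.59 ± 0.21 (SE; limma adjusted p = 0.848, unadjusted 0.019) at 20 h. Without 20 h replicate 1 the value at 20 h was -0.07. That value sets 20 h replicate 2, of day 3, against untreated arrays of 3 days, so it mixes in the day. The array with the lowest Dhcr7 was the one with the low Leydig and endothelial sums. They were 2567 and 151.7, against 6117 and 583.0 on the untreated array of that day. The Leydig markers were lower there by uneven amounts, with 0 of 7 above that control. Cyp17a1 had 127.4 against 1116.0, and Insl3 had 1185.6 against 1356.9. The part of cell content or of RNA per cell in the Dhcr7 value was not tested.

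Insig1, the regulator that retains SCAP in the endoplasmic reticulum and is itself an SREBP target, gave 730.2, 688.5 and 448.3 in untreated testis, 577.5 and 512.5 at 8 h, and 1001.1 and 517.5 at 20 h. Day 3 arrays were lower than those of days 1 and 2, and untreated replicate 3 had a log2 value 0.64 lower than untreated replicates 1 and 2 on average (-0.64). Across groups the log2 fold change was -0.16 ± 0.29 at 8 h and 0.24 ± 0.29 at 20 h (SE). Within days Insig1 was higher on every cadmium array: 577.5 and 512.5 at 8 h and 517.5 at 20 h, against 448.3 in the day 3 control, and 1001.1 at 20 h, against 730.2 in the day 1 control. The same-day differences were 0.35 and 0.19 at 8 h and 0.45 and 0.20 at 20 h. The highest value fell on 20 h replicate 1, the array with the low Leydig and endothelial sums and the lowest Dhcr7. Without that array the log2 fold change at 20 h was -0.23. This sets 20 h replicate 2, of day 3, against untreated arrays of 3 days, while its same-day difference was 0.20. The part of cell content was not tested. Blocking on day, which turns the sign at 8 h, gave a log2 fold change of 0.33 ± 0.15 (SE; limma adjusted p = 0.807, unadjusted 0.057) at 8 h and 0.32 ± 0.14 (SE; limma adjusted p = 0.848, unadjusted 0.041) at 20 h.

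**Figure D2:**
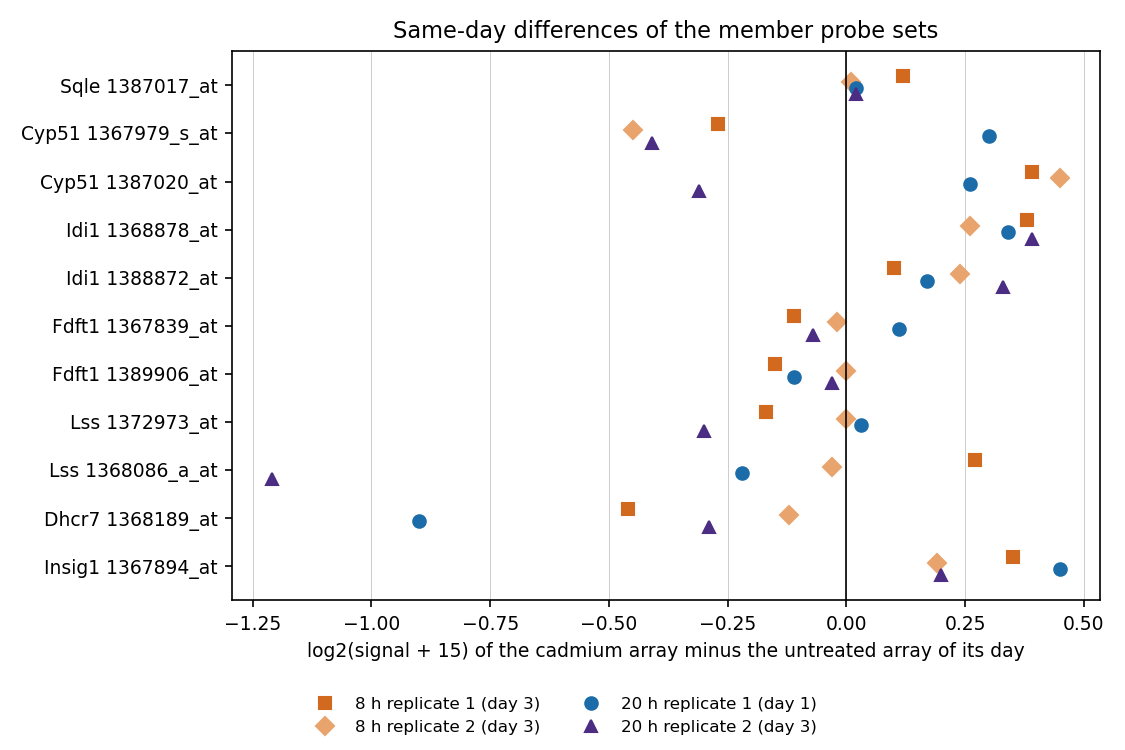
Difference in log2(signal + 15) between each cadmium array and the untreated array of its hybridization day, for the 11 member probe sets (rows); the marker names the cadmium array, and 3 of the 4 share untreated replicate 3. Both Idi1 probe sets (0.10 to 0.39) and Insig1 (0.19 to 0.45) lie right of 0 on all 4 arrays and Dhcr7 (-0.90 to -0.12) left of it.

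Read together, 4 of 11 member probe sets were above their same-day control on all 4 cadmium arrays (both of Idi1, Insig1 and Sqle, the last by 0.01 to 0.12), where 12.2% of all 20857 probe sets were. Below it on all 4 were 2 of 11 (Dhcr7, and 1389906_at of Fdft1 by 0.15 or less), where 17.7% of all were. With 1 probe set per gene, 3 of 7 genes were above on all 4, against 1524 of 11552 genes. Idi1, Insig1 and Dhcr7 kept their 4 of 4, 4 of 4 and 0 of 4 under quantile normalization and scaling to the 75th percentile, while Sqle went to 2 and 3 of 4.

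Over the whole table limma called 0 of 20857 probe sets at an adjusted p of 0.05 in each of the 3 comparisons, which is 0%, and so 0 of the 11 member probe sets. At an unadjusted p under 0.05 limma passed 5.22% of all probe sets at 8 h (1.16% higher, 4.06% lower), and 1 of 11 members, Idi1 1368878_at, higher. At 20 h 3.11% of all passed (0.767% higher, 2.34% lower), and again 1 of 11 members, Idi1 1368878_at, higher. Between 20 h and 8 h 1.92% passed (1.22% higher, 0.7% lower), and 1 of 11 members, Lss 1368086_a_at, lower. Blocked on day, limma's unadjusted p was under 0.05 for 2 of 11 member probe sets at 8 h (Idi1 1368878_at and Cyp51 1387020_at), where 6.11% of all passed. At 20 h it was under 0.05 for 3 of 11 (Idi1 1368878_at, Insig1 and Dhcr7), where 5.74% of all passed, and between the times for 1 of 11 (Cyp51 1387020_at), where 3.15% did. In the F test over the 3 groups 1 of 11 members had an unadjusted p under 0.05 (Idi1 1368878_at), against 3.02% of all, and 3 of 11 against 5.01% blocked on day. Without the block its limma adjusted p was 0.990 or more for each member.

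**Figure D3:**
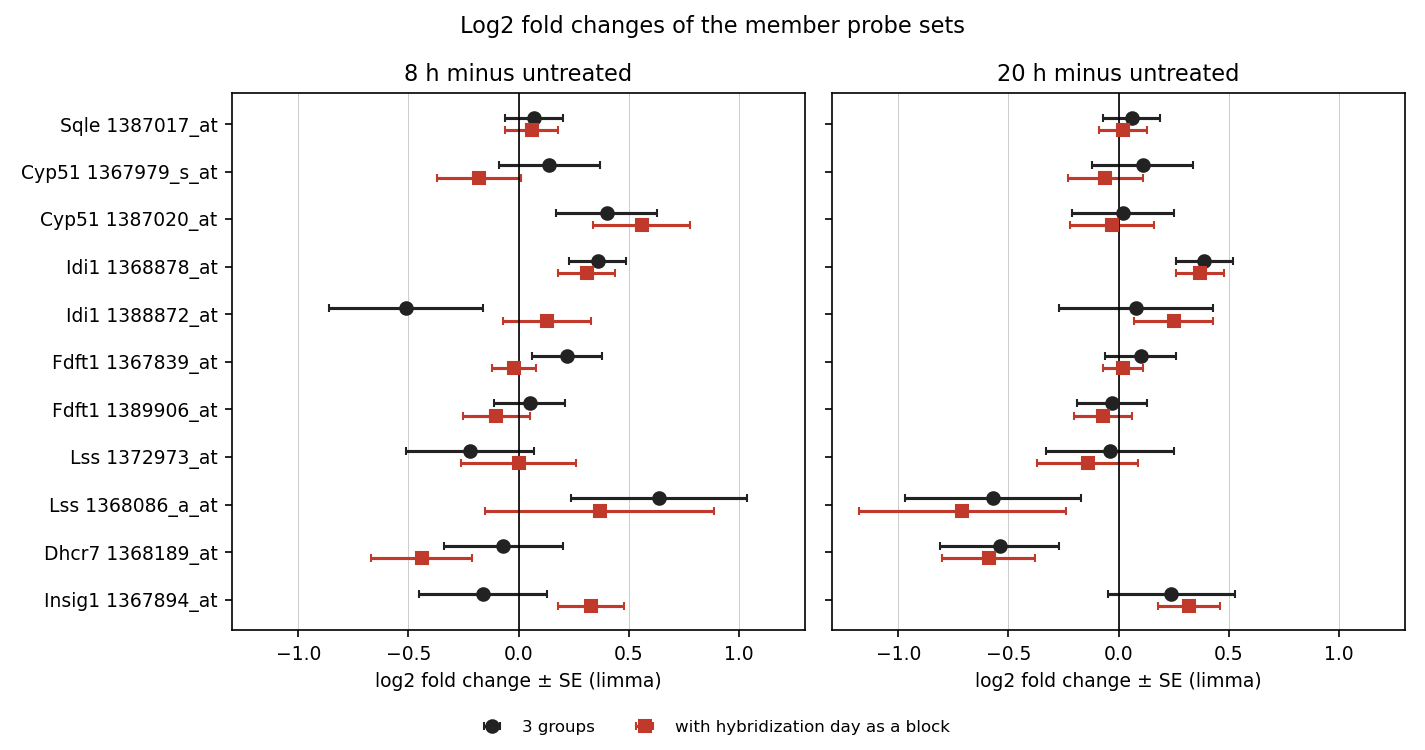
Log2 fold change ± SE from limma for the 11 member probe sets at 8 h (left) and 20 h (right) minus untreated, fitted over the 3 groups (circles) and with the hybridization day as a block (squares). The block moves Insig1 at 8 h to 0.33, against -0.16 in the plain fit, and leaves Idi1 1368878_at at 0.31 to 0.39 throughout.

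As a list, with the brightest probe set of each gene, the 7 measured members had a median log2 fold change of 0.07 at 8 h (4 higher, 3 lower) and 0.10 at 20 h (5 higher, 2 lower). The same medians over all 11552 genes were -0.03 and -0.03. Blocked on day, the members' medians were 0.00 and 0.02. All of these lie within 0.16 of 0. That number is the SD between replicate arrays of the members' median log2 level. It is not the spread of a median fold change.

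The other enzymes of the pathway, 13 measured of 15 listed besides the members, also lay on both sides of 0. For these and the lists that follow, values are log2 fold changes of each gene's brightest probe set in the fit over the 3 groups. The value blocked on day is added where its sign turns. Dimmer probe sets of a gene did not always share the sign, among them those of Hsd17b7, Srebf1, Stard4, Lipe, Abcg1 and Elovl6. At 8 h 6 were higher and 7 lower (median -0.01), at 20 h 4 were higher and 9 lower (median -0.13), and 0 passed in either. At 8 h the highest were Mvk, mevalonate kinase, at 0.15, and Ggps1, which makes geranylgeranyl diphosphate, at 0.09 (-0.06 blocked on day), and the lowest Lbr, a sterol reductase of the inner nuclear membrane, at -0.56 (0.11 blocked on day), and Ebp, the sterol isomerase, at -0.35. At 20 h the highest were Hsd17b7, a sterol ketone reductase, at 0.37 and Msmo1, the methyl oxidase after Cyp51, at 0.18 (0.03 at 8 h, and -0.16 there blocked on day), and the lowest Tm7sf2, another sterol reductase, at -0.41 and Lbr at -0.26. Between the times the extremes were Hsd17b7 at 0.41 and Lbr at 0.31 (-0.14 blocked on day) upward and Tm7sf2 at -0.44 and Mvk at -0.28 downward. The other Hsd17b7 probe set, 1387233_at, had -0.20 at 20 h and 0.57 between the times. Ebp was below its same-day control on all 4 cadmium arrays, as were 17.7% of all probe sets.

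Of the control machinery besides Insig1, 11 of 12 listed genes were measured, with a median of -0.12 at 8 h (3 higher, 8 lower) and -0.22 at 20 h (5 higher, 6 lower), and 0 passed. Scap, the escort that INSIG1 binds, gave 266.2, 240.8 and 216.5 in untreated testis, 256.4 and 302.2 at 8 h, and 388.3 and 267.2 at 20 h on its brighter probe set. It was above its same-day control on all 4 cadmium arrays, as were 12.2% of all probe sets. The log2 fold change of Scap was 0.20 ± 0.20 at 8 h and 0.40 ± 0.20 at 20 h (SE, limma adjusted p = 0.865 and 0.999). Mbtps1, the Golgi protease that first cuts SREBP, gave 445.2, 399.2 and 340.8 in untreated testis, 301.1 and 310.7 at 8 h, and 267.0 and 275.3 at 20 h. All 4 of its cadmium arrays were below all 3 untreated ones, as were 4.90% of all probe sets, and its log2 fold change was -0.35 ± 0.17 at 8 h and -0.51 ± 0.17 at 20 h (SE; limma adjusted p = 0.836 and 0.999). Srebf2, the SREBP of the cholesterol genes, had -0.21 ± 0.31 at 8 h and -0.25 ± 0.31 at 20 h (SE), and 0.34 and -0.05 blocked on day. Its same-day differences were 0.57 and 0.34 at 8 h and -0.28 and 0.19 at 20 h. Insig2, the paralogue of Insig1, had -0.21 ± 0.17 and -0.30 ± 0.17 (SE). The remaining extremes were Rnf139, an ER ubiquitin ligase, at 0.28, Nr1h3, an oxysterol receptor, at 0.26 and Mylip, a ubiquitin ligase induced by oxysterol receptors, at -0.40 at 8 h, and Srebf1, the other SREBP gene, at 0.34 and Nr1h2, the second oxysterol receptor, at -0.33 at 20 h. Between the times they were Srebf1 at 0.46, Mbtps2, which makes the second SREBP cut, at 0.21, Nr1h2 at -0.23 and Mbtps1 at -0.17. The other Srebf1 probe set, 1371104_at, had -0.28 at 20 h and -0.24 between the times.

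Among uptake, transport and hydrolysis genes 11 of 15 were measured, with medians of -0.05 at 8 h and -0.13 at 20 h, and 0 passed. Scarb1, the HDL receptor through which steroidogenic cells take up cholesterol ester, gave 281.4, 349.0 and 328.8 in untreated testis, 628.3 and 205.3 at 8 h, and 328.6 and 242.8 at 20 h on its brighter probe set. The 8 h arrays held both the highest and the lowest value, and 8 h replicate 1 was also the array with the highest Leydig sum, 11126. At 8 h Npc2, a lysosomal cholesterol carrier, was at 0.32 and Tspo, a mitochondrial outer membrane protein, at 0.20, with Stard4, a sterol transfer protein, at -0.43 and Lipe, the hormone-sensitive lipase, at -0.20. At 20 h Vldlr, a lipoprotein receptor, was at 0.34 and Lipe at 0.13, with Star, which brings cholesterol into mitochondria, at -0.55 and Lrpap1, a chaperone of lipoprotein receptors, at -0.41. Between the times Lipe had 0.33, Stard3 0.19, Star -0.63 and Scarb1 -0.34.

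Efflux and esterification genes (7 of 11 measured) had medians of -0.07 at 8 h and 0.01 at 20 h, and 0 passed. Cyp27a1, a sterol 27-hydroxylase, was at 0.30 and Apoe, a lipoprotein component, at 0.26 (-0.03 blocked on day) at 8 h, with Nceh1, a cholesterol ester hydrolase, at -0.39 and Soat1, which esterifies cholesterol, at -0.09 (0.22 blocked on day, and above its same-day control on all 4 cadmium arrays). At 20 h Abcg1, a cholesterol exporter, was at 0.23 and Soat1 at 0.21, with Lcat, the plasma esterifying enzyme, at -0.58 and Nceh1 at -0.16. Between the times Soat1 had 0.30, Abcg1 0.29, Lcat -0.51 and Cyp27a1 -0.30. Of all probe sets 12.2% were, like Soat1, above their same-day control on all 4 cadmium arrays. SREBP-linked fatty acid genes (10 of 12 measured) had medians of 0.12 at 8 h and -0.04 at 20 h, and 0 passed. Their extremes at 8 h were Elovl6, a fatty acid elongase, at 0.31, Me1, malic enzyme, at 0.30, Fads2, a desaturase, at -0.05 and Acss2, an acetyl-CoA synthetase, at -0.03. At 20 h they were Elovl6 at 0.30, Acss2 at 0.21, Fads2 at -0.62 and Fads1, another desaturase, at -0.46. Fads1 and Fads2 were below their same-day control on all 4 cadmium arrays, as were 17.7% of all probe sets. Fads1 on 8 h replicate 1 was level with its control, 693.7 against 694.4. Both genes also had the lowest values between the times, -0.60 and -0.57. Acss2 at 0.24 and Acly, the citrate lyase, at 0.06 (-0.13 blocked on day) were the highest there.

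**Figure D4:**
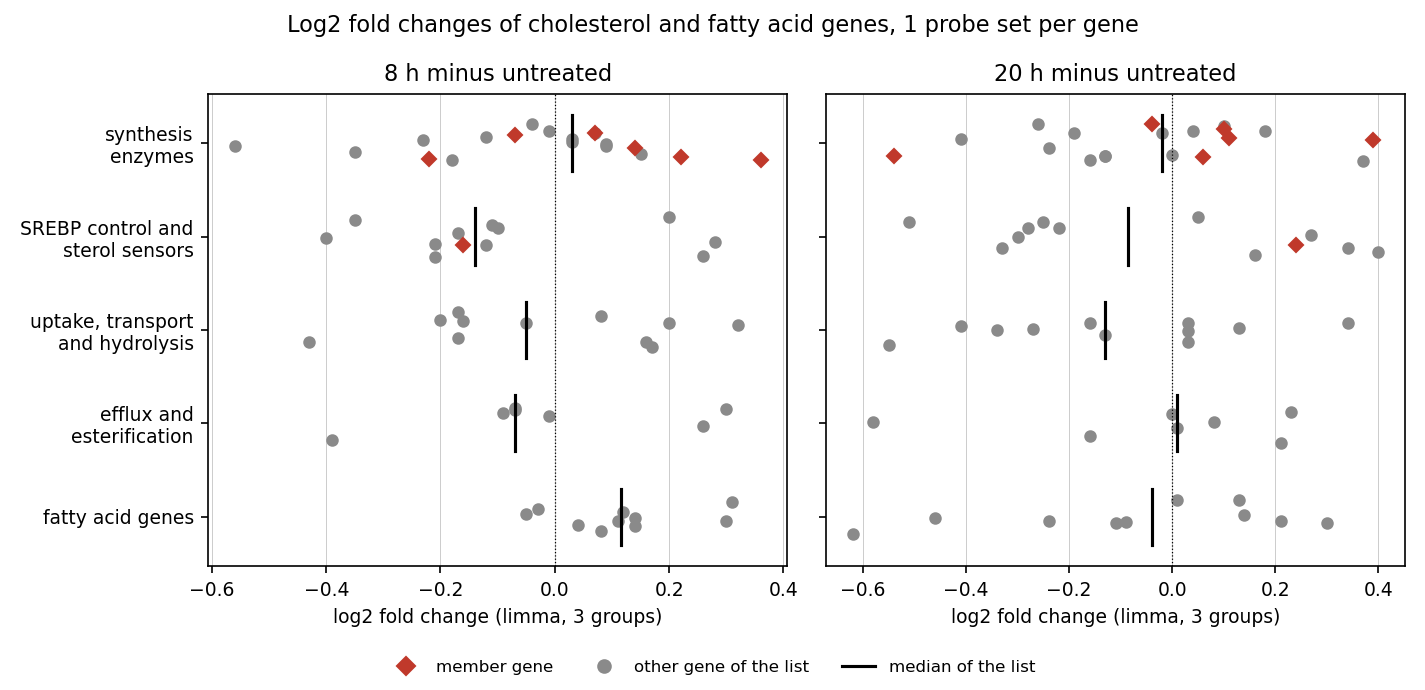
Log2 fold change (limma, 3 groups) at 8 h (left) and 20 h (right) minus untreated for each measured gene of 5 lists, 1 probe set per gene; diamonds are member genes and bars the list medians. Genes of each list fall on both sides of 0, and the medians lie between -0.14 and 0.12.

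The genes whose pattern was most like the members' were those with the highest Pearson r, over the 7 arrays, to the mean of the members' standardised profiles, among 4342 probe sets that name 1 gene and span at least 1 on the log2 scale. They were Cobl (r = 0.977), Them7 (0.954), Ahr (0.941), Ero1a (0.939), Clca4l (0.938), Adrb3 (0.934), Pgm2l1 (0.929) and Pdlim7 (0.926). Cobl (signals of 6.3 to 50.1), Ahr (13.7 to 50.2) and Adrb3 (3.8 to 47.5) were dim, below the median signal on all 7 arrays. On untreated replicate 2 their signals were also below the number added before log2. Them7, Ero1a, Clca4l and Pdlim7 were above their array's median on some arrays only, and Pgm2l1 (219.9 to 474.0) on all. The members' mean profile was lowest on untreated replicate 2, at -0.81, and between -0.07 and 0.32 on the other arrays. Each of the 8 genes was likewise lowest on untreated replicate 2, the array alone on its day and under another staining protocol, and the part of the protocol in this likeness was not tested.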

How the data were processed

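Total RNA of rat testis had been hybridized to 7 Affymetrix arrays. Per the labels, the authors used MAS 5.0 and GeneSpring 7.2; the deposited intensity of a probe set is a linear MAS signal; the submitters' processing notes name MAS5. The instrument's experiment files hold other information, per the file headers, from which array type, hybridization day and staining were read. Trimmed by 2% at each end, the mean signal was equal on all arrays. The depth behind an array value is not a count; the number of arrays limits the precision.

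Before log2, 15 (the 20th percentile of the table) was added to each signal. A probe set was kept if 2 or more arrays had it over their 40th percentile (20857 of 31042, without 57 controls), and all 11 member probe sets passed. Of the 31042, 20826 name 1 gene, 436 several and 9780 none here. A single model held the 3 groups, in limma 3.58.1 (R 4.3.3), using eBayes with trend (4 residual and 5.48 prior degrees of freedom), Benjamini-Hochberg adjusted over the probe sets kept; the day block leaves 2. The fit was tested on simulated data. No genome build is given for the probe sets in the sources used here; the promoters are from RefSeq GRCr8.

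Members, lists and tests were chosen with earlier results of these data known. Named genes were all members, the 2 highest and 2 lowest log2 fold changes of each pathway list per comparison, Srebf2, Scap, Insig2 and Msmo1, and the 8 genes most like the members; some other genes of the rule are not reported here. The same-day differences were added after seeing the data. Marker lists not given in the text had summed signals of 11422 to 14339 (Sertoli, 8 genes), 1775 to 2000 (macrophage, 7), 1375 to 1755 (peritubular myoid, 5) and 80.6 to 218.8 (liver and fat, 3).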

Additional observations from a re-analysis of the deposited data

Results flagged for a closer look

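Lss probe set 1368086_a_at was higher on both 8 h arrays (56.0 and 42.6) and lower on both 20 h arrays (14.9 and 10.5) than the untreated mean of 27.4, so the arrays of the 2 times lay on opposite sides of it. The log2 difference of 20 h from 8 h was -1.21 (limma adjusted p = 1.00), and its size is not settled: with 1 or 50 in place of the 15 added before log2, which exceeds both 20 h signals, it was -1.88 and -0.66. On the same-day scale only 8 h replicate 1 was above its control, by 0.27. The probe set was above its array's median on 1 of 7 arrays, and 1372973_at, the other one of Lss, did not share the pattern.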

How the results depend on the processing

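No member probe set passed an adjusted p of 0.05 in limma under any of the 16 alternative fits (525 values over the 3 comparisons, lowest adjusted p 0.20). The number of probe sets called over the whole table was 0 in all 4 tests under the 9 alternatives that keep every array; leaving out 1 array gave 0 to 1 at 8 h, 0 to 8 at 20 h, 0 to 1 between the times and 0 to 1 in the F test, with 1 at 8 h, between the times and in the F test without 8 h replicate 2, and 8 at 20 h and 1 between the times without 20 h replicate 2; a group left with 1 array is assumed to vary like the others. The members' median log2 fold change moved by less than 0.16, with the exceptions below. The 0.16 is the SD between replicate arrays of the members' median log2 level, not the spread of a median fold change. The same-day median was -0.11 for 8 h replicate 1, against 0.07 in the fit at 8 h. For 20 h replicate 2 it was -0.07, against 0.10 in the fit at 20 h. The cause was not tested. Idi1 1368878_at ran from 0.30 to 0.46 at 8 h and from 0.35 to 0.45 at 20 h over all alternatives. Insig1 ran from -0.37 to 0.33 at 8 h and from -0.23 to 0.70 at 20 h, and Dhcr7 from -0.44 to 0.10 and from -1.0 to -0.07. The replicate numbers did not pair the arrays: differences between replicates 1 and 2 had correlations of 0 (8 h with untreated), 0.09 (20 h with untreated) and 0.14 (20 h with 8 h). With the replicate block limma called 0 probe sets in each comparison, and the members' medians were 0.07 (8 h), 0.06 (20 h) and -0.01 (20 h against 8 h). With 2 arrays per cadmium group and untreated replicate 3 behind 3 of 4 same-day differences, the arrays cannot show small changes.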

Other observations

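Soat1 probe set 1369002_at, a gene of the esterification list with another, brighter probe set, gave 240.0, 244.8 and 18.7 in untreated testis, 130.8 and 111.7 at 8 h, and 199.7 and 89.6 at 20 h. Untreated replicate 3 alone was low, so that the same-day differences were 2.11 and 1.91 at 8 h and 1.63 on 20 h replicate 2, against -0.25 on 20 h replicate 1, which had another control. The brighter Soat1 probe set, 1374976_a_at, had 160.9 on untreated replicate 3 and 177.5 to 285.2 on the cadmium arrays. This probe set was chosen after its values were seen.

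Scarb1 differed between the 8 h arrays on both of its probe sets, with 628.3 and 205.3 on 1386956_at and 696.1 and 236.3 on 1367855_at. The untreated arrays lay between 281.4 and 349.0 on the first and between 222.8 and 376.3 on the second.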
